A study of Mus musculus with 6 samples.

Results

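Basement membrane genes were followed in nuclei of the mouse periosteum, the tissue that wraps the outer surface of bone, before and after fracture of the tibia. The 10 genes are Col4a1, Col4a2, Col15a1, Col18a1, Lama2, Lama4, Lamb1, Lamc1, Nid1 and Hspg2. They were chosen by symbol from the 30406 genes that were listed for every library, and each of the 10 was found in all 6 libraries. Single-nucleus RNAseq was performed on 2 libraries of uninjured periosteum, 2 libraries of injured periosteum with its hematoma 3 days post-fracture, and 1 such library each on days 5 and 7. The mice were wild-type C57BL6 animals (C57BL/6ScNj in the methods), 12 weeks old, with males and females mixed in each group. Each uninjured library pooled the tibias of 4 mice and each fracture library those of 4 to 9 mice, after an open, non-stabilized tibial fracture, and every library came from nuclei sorted by flow cytometry for the nuclear dye Sytox AADvanced. Since the fracture libraries also hold the hematoma, day and tissue collected cannot be told apart. The tested p-values measure the spread between pooled libraries, which may be partly technical.

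The libraries held between 1499281 and 29796296 UMIs (unique molecular identifiers, each standing for 1 captured transcript), and 8073 nuclei were kept. Uninjured library 1, day 5 and day 7 were counted with Cell Ranger 6.0.0 and the other 3 libraries with 7.1.0, and uninjured library 1 had the fewest UMIs, so each test was repeated without it. The lists of genes also differed, with 31055 genes for both uninjured libraries and day 3 library 2. Day 3 library 1 and day 7 had 32285 genes and day 5 had 32287. Leaving out uninjured library 1 does not remove this difference, and only genes listed for every library were used. Libraries shared 4 cell barcodes over all 15 pairs of libraries. Nuclei were grouped by clustering on genes other than the 10 members and the marker lists, and groups were named "-like" from their markers. Endothelial-like nuclei numbered 886 and stromal nuclei 2402, the latter holding skeletal stem/progenitor cell (SSPC)-like, fibroblast-like, injury-induced fibrogenic cell (IIFC)-like, osteoblast-like and chondrocyte-like nuclei. All 7 endothelial markers (Pecam1, Cdh5, Emcn, Ptprb, Flt1, Egfl7 and Tie1) were detected in endothelial-like nuclei of every library, and their summed level ranged from 4750 to 7178 CPM. Levels are CPM, the UMIs of a gene per 1000000 UMIs of all genes in the same nuclei, with exact Poisson 95% intervals that cover counting error only. CPM of different genes were not compared with each other, because intronic reads were counted and the genes differ in length from 64.4 to 640 kb.

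A basement membrane is a thin sheet of matrix that lies under endothelium and around pericytes, Schwann cells, myofibres and adipocytes. Laminins, trimers of an alpha, a beta and a gamma chain, assemble on cell surfaces. Collagen IV forms another network, and nidogen and perlecan tie the networks together. Col4a1 and Col4a2 encode the chains of the most widespread collagen IV. Col15a1 and Col18a1 encode collagens of the multiplexin type that carry glycosaminoglycan chains, and the C-terminal fragment of collagen XVIII is endostatin. Lama2 encodes the alpha chain of laminins of muscle and peripheral nerve, Lama4 the alpha chain typical of vessels, and Lamb1 and Lamc1 a beta and a gamma chain shared by many laminins. Nid1 encodes nidogen-1 and Hspg2 perlecan, a heparan sulfate proteoglycan.

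Col4a1 (ENSMUSG00000031502, chr8:11198423-11312826, minus strand) and Col4a2 (ENSMUSG00000031503, chr8:11312805-11449287, plus strand) lie head to head on GRCm38, and their first exons overlap by 22 bases in the GENCODE release 21 annotation. These bases, read on the plus strand at chr8:11312801-11312830, are shown because both genes were called higher at day 3 in endothelial-like nuclei. Their ratio was not constant, as described below. Capitals mark the bases that belong to both first exons, and the sequence is from RefSeq GRCm38.p6.
Col4a1 and Col4a2 shared start: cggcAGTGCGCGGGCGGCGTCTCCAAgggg
The other members stand apart in the genome. Col15a1 (chr4:47208161-47313167) and Hspg2 (chr4:137468769-137570630) lie on the plus strand of chromosome 4. Lama2 (chr10:26980036-27619758, minus), Lama4 (chr10:38965515-39110188, plus) and Col18a1 (chr10:77052178-77166548, minus) lie on chromosome 10. Lamc1 (chr1:153218922-153332786, minus), Lamb1 (chr12:31265234-31329644, plus) and Nid1 (chr13:13437551-13512269, plus) complete the set.

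Col15a1 and Lama2 were the members with the lowest day 3 log2 fold changes in stromal nuclei, described below, and the 250 bases before their RefSeq start are given for that reason. The RefSeq start of Lama2 lies inside the gene as GENCODE places it, downstream of the GENCODE start, so its stretch is also inside that annotation. Both are written 5′ to 3′ on the strand of the gene, Col15a1 from chr4:47207762-47208011 (plus) and Lama2 from chr10:27616943-27617192 (minus) of GRCm38.p6, with each CG dinucleotide in capitals.
Col15a1 before the RefSeq start: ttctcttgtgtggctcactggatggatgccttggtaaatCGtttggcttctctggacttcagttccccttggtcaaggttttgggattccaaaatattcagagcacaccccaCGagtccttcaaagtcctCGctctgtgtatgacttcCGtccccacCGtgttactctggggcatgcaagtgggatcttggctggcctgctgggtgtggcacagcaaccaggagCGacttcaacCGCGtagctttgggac
Lama2 before the RefSeq start: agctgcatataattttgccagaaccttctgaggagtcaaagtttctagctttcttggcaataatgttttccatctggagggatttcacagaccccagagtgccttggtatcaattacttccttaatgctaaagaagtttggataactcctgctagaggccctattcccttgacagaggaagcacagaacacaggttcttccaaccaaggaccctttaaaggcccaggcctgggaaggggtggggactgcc
The Col15a1 stretch holds 8 CG dinucleotides and the Lama2 stretch 0. Over RefSeq windows of 300 bases (250 before and 50 after a start), the median of 32851 windows was 7 CG dinucleotides, with quartiles of 3 and 20. The windows of Col4a1 and Col4a2, which overlap, held 37 and 33, that of Hspg2 held 27, that of Nid1 held 20 and that of Lamb1 held 18. The window of Lama2 held 1, and 2 alternative starts of Col18a1 held 16 and 6. Of the 10 members, 8 had a RefSeq window, and Lama4 and Lamc1 are named only.

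In the uninjured periosteum, the collagen IV chains and collagen XVIII were highest in pericytes and smooth muscle cells (SMCs), the contractile cells that wrap vessels, rather than in endothelial-like nuclei. In pericyte/SMC-like nuclei, Col4a1 stood at 785 and 749 CPM, Col4a2 at 659 and 740.0 CPM and Col18a1 at 952 and 446 CPM in libraries 1 and 2. In endothelial-like nuclei of the same libraries Col4a1 stood at 117 and 169.7 CPM, Col4a2 at 141 and 176 CPM and Col18a1 at 40.5 and 127 CPM. For Col18a1 the interval of pericyte/SMC-like nuclei stayed clear of the next group in both libraries, 810.0 to 1112 CPM and 378 to 524 CPM. For Col4a1 it overlapped the next group in both libraries, which was fibroblast-like nuclei in library 1 and IIFC-like nuclei in library 2, the latter only 10 nuclei. For Col4a2 it overlapped adipocyte-like nuclei in library 1 only. Pericyte/SMC-like nuclei were 9.78% and 5.41% of uninjured nuclei and held 43.1% and 26.6% of all Col4a1 UMIs.

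Schwann-like nuclei led for laminin beta 1. Schwann cells, which wrap axons and build a basement membrane around each unit, had the highest level of Lamb1 among the groups of both uninjured libraries, 497 and 533 CPM in 24 and 32 Schwann-like nuclei. The next group, adipocyte-like nuclei, stood at 177 and 123 CPM, and the intervals overlapped in library 1 and not in library 2. Schwann-like nuclei also had Lama2 at 1679 and 1326 CPM, Lamc1 at 828 and 427 CPM and Hspg2 at 331 and 305 CPM. Their Hspg2 lay within counting error of the next group in both libraries, immune-like nuclei in library 1 (326 CPM, 5 UMIs) and pericyte/SMC-like nuclei in library 2 (239.7 CPM). In library 1 immune-like nuclei were highest with doublets removed and IIFC-like nuclei at a clustering resolution of 0.8. In nerve sheath-like nuclei, which carried markers of the perineurium such as Cldn1 and Ntng1, Lamb1 stood at 0 and 9.24 CPM (0 and 2 UMIs) while Lama4 stood at 509.5 and 1072 CPM.

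Among the groups of at least 10 nuclei in the uninjured periosteum, Lama2 was highest in fibroblast-like nuclei in library 1 and in satellite-like nuclei in library 2, and Nid1 was highest in SSPC-like nuclei in both. Fibroblast-like nuclei had Lama2 at 4675 (4173 to 5219) and 2487 (2370 to 2608) CPM, and SSPC-like nuclei had it at 1634 and 1728 CPM. The 19 satellite-like nuclei (muscle stem cells, expressing Pax7) of library 2 had Lama2 at 5481 CPM, above every other group of that library beyond counting error, and the 8 satellite-like nuclei of library 1 had it at 6244 CPM. Nid1 was highest in SSPC-like nuclei, at 311 and 439.8 CPM, overlapping fibroblast-like nuclei at 178 in library 1 and IIFC-like nuclei at 267 in library 2. Without integration, at resolution 0.8 and with relaxed limits on nuclei, Nid1 was highest in fibroblast-like nuclei in both libraries. Col15a1 stood at 281 and 280.4 CPM in fibroblast-like nuclei and at 0 and 2.63 CPM in SSPC-like nuclei, where the 0 allows up to 58.4 CPM. Col15a1 was at 1 UMI in each uninjured library in pericyte/SMC-like nuclei, which is 5.99 and 3.00 CPM, and Lamb1 was at 0 of 166969 and 0 of 333770 UMIs there, which allows up to 18.0 and 8.99 CPM. None of the 10 members had its highest level in endothelial-like nuclei in both uninjured libraries.

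**Figure D1:**
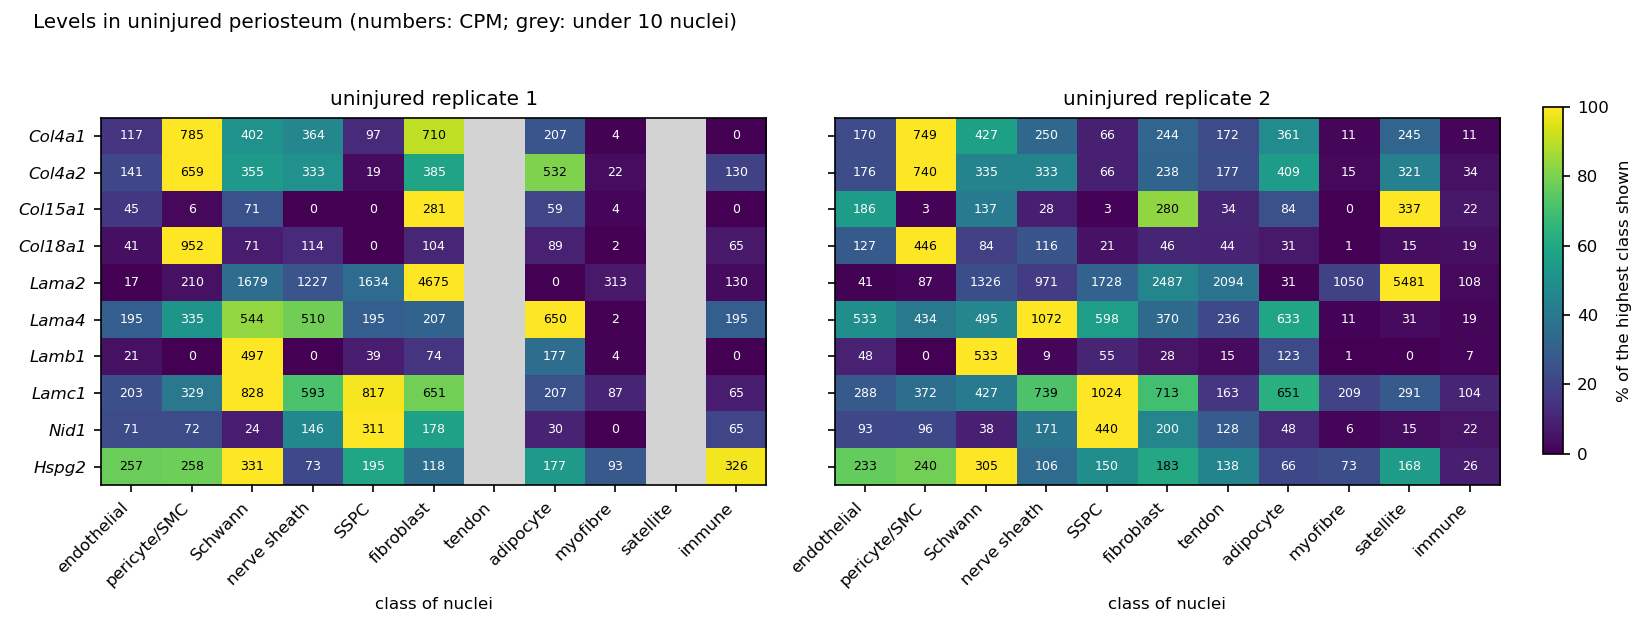
Levels of the 10 members (CPM) in named groups of nuclei, for each library of the uninjured periosteum. Col4a1, Col4a2 and Col18a1 are highest in pericyte/SMC-like nuclei, Lamb1 in Schwann-like nuclei and Nid1 in SSPC-like nuclei in both libraries. Under some alternative settings Nid1 was highest in fibroblast-like nuclei.

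Levels in immune-like nuclei are given as a comparison for low values. Free RNA was not measured, so it cannot be told apart there from transcripts of the immune nuclei themselves. Over all libraries their Col4a1 was 20.7 CPM, Col4a2 14.2, Col15a1 11.7, Col18a1 14.4, Lamb1 11.1 and Nid1 7.54 CPM. Lama2 stood at 41.5, Lama4 at 30.5, Hspg2 at 30.7 and Lamc1 at 109.6 CPM there. In endothelial-like nuclei Lama2 was 16.7 and 41.0 CPM in the uninjured libraries and 21.6 and 23.4 CPM at day 3, under its level in immune-like nuclei of the same libraries (130 and 108 CPM in uninjured and 47.7 and 33.0 CPM at day 3), so these values were not read as expression.

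At day 3 post-fracture, collagen IV, collagen XVIII and laminin beta 1 were higher in endothelial-like nuclei. Col4a1, Col4a2, Col18a1 and Lamb1 passed the test of day 3 against uninjured, 4 of the 10 members and each of the 4 higher, where 3.47% of the 6749 genes tested were called, 1.57% higher and 1.90% lower. No member was called lower. The median log2 fold change was 1.60 over the 10 members and -0.01 over all genes tested. These values came from 210 and 257 endothelial-like nuclei without injury and from 39 and 61 nuclei at day 3. The test was edgeR's quasi-likelihood test on UMIs summed per library, with Benjamini-Hochberg adjustment over all genes tested and 0.05 as the threshold.

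Before fracture, Col4a1 in endothelial-like nuclei was 117 (86.4 to 154) and 169.7 (147 to 195) CPM. At day 3 it was 995 (802 to 1221) and 1482 (1374 to 1596) CPM. The groups did not overlap, and the log2 fold change was 3.01 ± 0.31 (SE, adjusted p = 0.0091). Its partner chain Col4a2 was 141 and 176 CPM in uninjured and 844 and 853 CPM at day 3. Both day 3 libraries lay above both uninjured ones (log2 fold change 2.33 ± 0.28, adjusted p = 0.0106). Col18a1 was 40.5 and 127 CPM in uninjured and 270.5 and 499.7 CPM at day 3. Each pair of libraries differed among itself, but the groups stayed apart (2.08 ± 0.47, adjusted p = 0.0478). Lamb1 was 21.4 and 48.5 CPM in uninjured and 173 and 204 CPM at day 3, again without overlap (2.26 ± 0.42, adjusted p = 0.0276).

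The other members gave smaller or less even differences in endothelial-like nuclei. Col15a1, a collagen of vascular basement membranes, was 45.3 and 186 CPM in uninjured and 487 and 521 CPM at day 3. The uninjured libraries lay far apart, and it did not pass the test (1.98 ± 0.51, adjusted p = 0.072). Lama4 was 195 and 533 CPM in uninjured and 930.5 and 882 CPM at day 3 (1.23 ± 0.42, adjusted p = 0.162). Hspg2 was 257 and 233 CPM against 563 and 432 CPM (0.91 ± 0.30, adjusted p = 0.15). Lamc1 was 203 and 288 CPM against 487 and 406 CPM (0.75 ± 0.30, adjusted p = 0.24). These 4 genes did not pass the threshold. Nid1 was 71.5 and 92.8 CPM against 119 and 123 CPM, and its intervals overlapped between groups (0.44 ± 0.36, adjusted p = 0.61).

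The 1 library at day 5 and the 1 library at day 7 gave levels in endothelial-like nuclei that were not tested. Col4a1 was 1562 (1476 to 1651) CPM at day 5 and 1329 (1142 to 1537) CPM at day 7, within or above the range of the day 3 libraries. Col4a2 was 1045 and 639 CPM, Col15a1 497 and 345 CPM, and Col18a1 492 and 469.9 CPM. Lamb1 was 213 and 169 CPM. Each of these 5 genes was above both uninjured libraries at both days, and the share of all genes that were is not given here. Lama2 was 84.8 and 154 CPM, above its level in immune-like nuclei of the same libraries, 49.9 and 81.5 CPM, with intervals that overlapped at day 7 only. A few nuclei carried these values. At day 5, 43 of the 67 Lama2 UMIs came from 3 nuclei of a subcluster that stayed unnamed (described below) and 12 from 2 lymphatic-like nuclei, while capillary-like and venous-like nuclei stood at 6.74 and 33.9 CPM. At day 7, 15 of the 21 UMIs came from the unnamed subcluster.

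**Figure D2:**
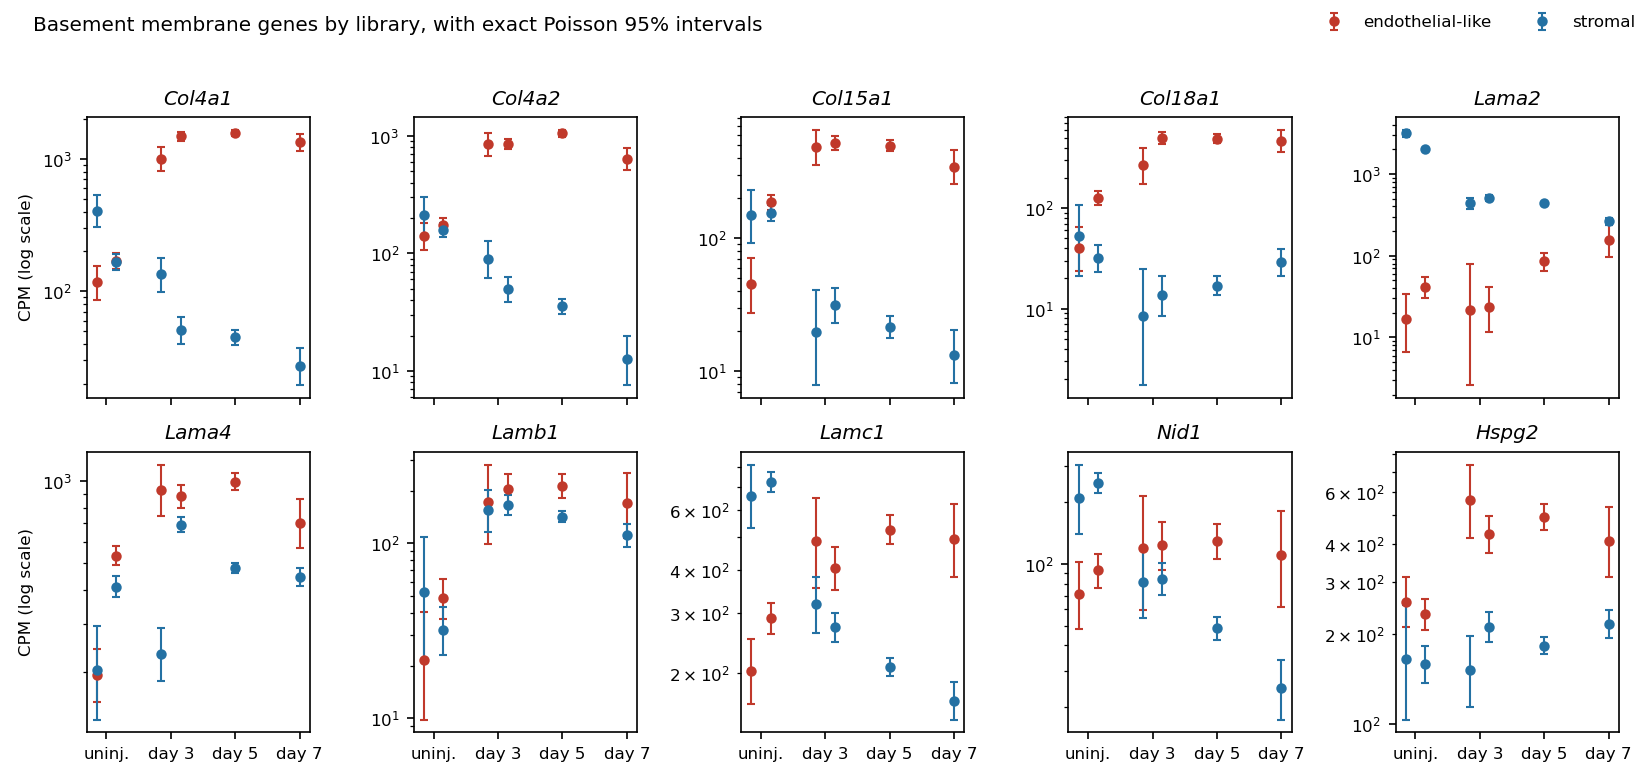
Level of each member (CPM) in every library, in endothelial-like and stromal nuclei, with exact Poisson 95% intervals for counting error. Col4a1 in endothelial-like nuclei stands at 117 and 169.7 CPM in the uninjured libraries and between 995 and 1562 CPM after fracture, while Lama2 in stromal nuclei falls from 3135 and 2009 CPM to at most 508 CPM.

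The share of endothelial-like nuclei with a Col4a1 UMI was also higher in each library after fracture. After each nucleus was thinned to 500 UMIs, 3.81% (1.66 to 7.37, exact binomial) of 210 and 8.56% (5.44 to 12.7) of 257 nuclei had a Col4a1 UMI in the uninjured libraries 1 and 2. At day 3 it was 38.5% (23.4 to 55.4) of 39 and 44.3% (31.5 to 57.6) of 61 nuclei, and 40.3% of 238 at day 5 and 33.8% of 80 at day 7. Both day 3 libraries lay above both uninjured ones, with no test over 2 libraries against 2, and the intervals cover counting error within a library only. Without thinning the shares were 13.3% and 33.9% in uninjured, 61.5% and 86.9% at day 3, and 73.5% and 57.5% in the libraries of days 5 and 7. In immune-like nuclei the thinned share was at most 1.86% in each library. At most 1 endothelial-like nucleus per group was left out for low depth. The medians ranged over libraries from 1024 to 7033 UMIs in endothelial-like and from 557 to 3378 UMIs in immune-like nuclei.

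Endothelial-like nuclei held 32.6% and 21.7% of nuclei and 16.1% and 21.6% of all Col4a1 UMIs in the uninjured libraries. At day 3 they held 5.18% and 3.55% of nuclei and 43.0% and 67.2% of Col4a1 UMIs. At days 5 and 7 they held 60.4% and 56.6% of these UMIs, from 9.86% and 5.92% of nuclei. At day 3, Col4a1, Col4a2, Col15a1, Col18a1, Lamc1 and Hspg2 had their highest level in endothelial-like nuclei in both libraries, among groups of at least 10 nuclei. For Col4a1, Col4a2 and Col15a1 this level stood apart from the next group beyond counting error in both libraries, and for Col18a1 in 1 of the 2. Pericyte/SMC-like nuclei, highest for Col4a1, Col4a2 and Col18a1 before fracture, numbered 4 and 9 at day 3 and were not ranked there. Among the groups ranked later, they were highest for Col18a1 at days 5 and 7 and for Col4a2 at day 7.

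The 4 calls depended on the libraries, and none was kept in every fit with a library left out. Calls over all genes shifted in these fits as well. Such a fit leaves 1 library in a group, so effect sizes are given here. The log2 fold change ranged from 2.77 to 3.24 for Col4a1 and from 2.17 to 2.44 for Col4a2. It ranged from 1.52 to 3.10 for Col18a1 and from 1.87 to 2.96 for Lamb1. Without uninjured library 1, which left only libraries counted with Cell Ranger 7.1.0, Col4a1 was at 2.77. Without day 3 library 2 it was at 2.78. Col18a1 was past the threshold no longer with RLE normalization, without integration or with doublets removed (adjusted p = 0.055, 0.056 and 0.051). Pericyte/SMC markers, the group that was highest for collagen IV, summed to 331 and 256 CPM in uninjured and to 43.3 and 89.3 CPM at day 3 in endothelial-like nuclei, 6 of 6 markers being detected before and 2 and 4 of 6 after fracture. Immune markers summed to 11.9 and 35.1 CPM in uninjured and to 129.8 and 189 CPM at day 3, and their part in the result was not tested.

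Subclusters of endothelial-like nuclei were named from capillary, venous, arterial and lymphatic markers. Their leading genes were Rgcc, Kit and St8sia4 for capillary-like, Adamts18, Selp and Kirrel3 for venous-like, Nebl, Efna5 and Prdm16 for arterial-like, and Reln, Sema3d and Ccl21a for lymphatic-like nuclei. Another subcluster, of low depth and led by the muscle genes Ttn and Dmd and by Gm48099, stayed unnamed. Capillary-like nuclei made up 18.6% and 19.8% of endothelial-like nuclei in the uninjured libraries and 43.6% and 34.4% at day 3. They had higher collagen IV than venous-like nuclei before fracture, with Col4a1 at 527 and 483 CPM against 36.4 and 92.2 CPM. At day 3 Col4a1 stood at 1546 and 1938 CPM in capillary-like and at 825 and 1493 CPM in venous-like nuclei.

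Both subclusters were tested on their own, an analysis added after the data were seen. In venous-like nuclei (60, 92, 12 and 25 nuclei) Col4a1 rose with a log2 fold change of 4.03 (adjusted p = 0.015) and Col4a2 with 3.66 (adjusted p = 0.037). These were 2 of 9 members tested, where 73 of 4371 genes were called, 29 higher and 44 lower. In capillary-like nuclei (39, 51, 17 and 21 nuclei) Col4a1 had a log2 fold change of 1.69 and did not pass (adjusted p = 0.061), nor did Col4a2 (0.83, adjusted p = 0.31). Lamb1 was the only member called in capillary-like nuclei, at 68.0 and 55.9 CPM in uninjured and 283 and 472 CPM at day 3. It was 1 of 9 members tested, where 65 of 2599 genes were called, 22 higher and 43 lower. The difference between the subclusters was not tested. Without the unnamed subcluster, Col4a1, Col4a2 and Lamb1 were called in the remaining endothelial-like nuclei, where 210 of 6422 genes were called.

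Other members differed among the vessel types. Lama4 was 153 and 625 CPM in capillary-like nuclei of the uninjured libraries and 1649 and 1824 CPM at day 3, while venous-like nuclei had 187 and 285 CPM before and 413 and 325 CPM after. In lymphatic-like nuclei Lama4 stood at 365 and 1781 CPM in uninjured and 1874 CPM at day 5, and Col15a1 was at 0 UMIs in both uninjured libraries, which allows up to 78.1 and 22.4 CPM. Lamb1 was also at 0 UMIs in arterial-like nuclei of both uninjured libraries, which allows no more than 47.1 and 15.2 CPM.

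**Figure D3:**
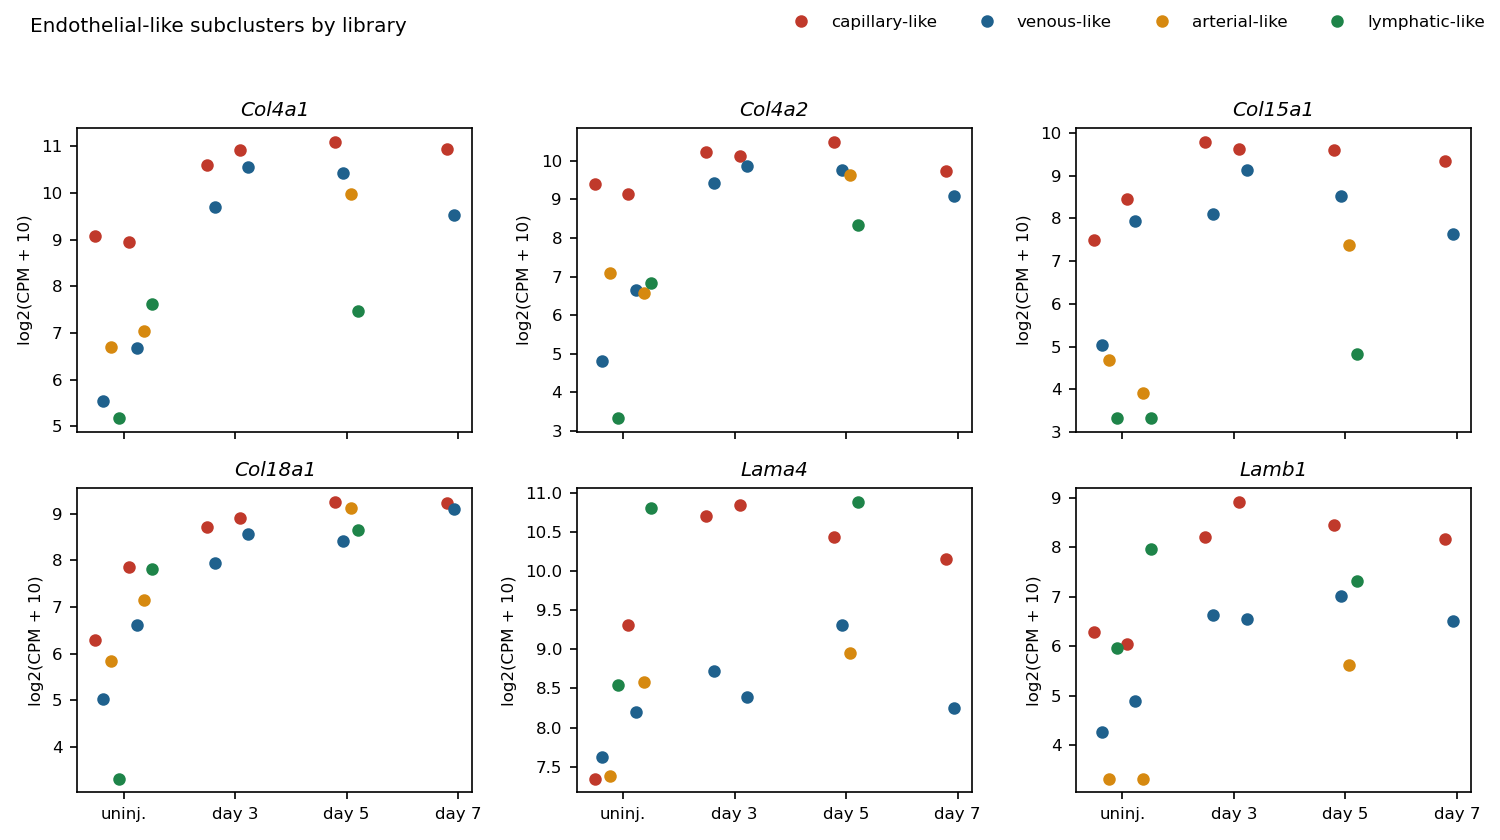
Levels of members in the endothelial subclusters of each library with at least 10 nuclei. Col4a1 in venous-like nuclei stands at 36.4 and 92.2 CPM in the uninjured libraries and at 825 and 1493 CPM at day 3, and capillary-like nuclei start from 527 and 483 CPM.

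In stromal nuclei the members moved differently at day 3. Col15a1, Lama2 and Nid1 fell and Lamb1 rose, which is 4 of the 10 members, where 8.29% of the 9216 genes tested were called, 3.36% higher and 4.93% lower. The other 6 members did not pass the test. The median log2 fold change was -1.49 over the 10 members and 0.01 over all genes tested. The sums came from 89 and 307 nuclei in the uninjured libraries and 114 and 209 nuclei at day 3.

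Lama2 in stromal nuclei was 3135 (2841 to 3451) and 2009 (1932 to 2088) CPM in uninjured and 438 (372 to 513) and 508 (472 to 547) CPM at day 3. The groups were far apart, and Lama2 fell by 2.48 ± 0.42 on the log2 scale (adjusted p = 0.0042). Col15a1 was 150.4 and 156 CPM in uninjured and 19.7 and 31.7 CPM at day 3. It fell by 2.59 ± 0.42 (adjusted p = 0.0033), and immune-like nuclei of the same day 3 libraries stood at 3.97 and 10.2 CPM. Nid1 was 211 and 249 CPM against 81.5 and 84.7 CPM, without overlap, and fell by 1.53 ± 0.36 (adjusted p = 0.0220). Lamb1 was 52.6 and 31.9 CPM in uninjured and 155 and 165 CPM at day 3, and rose by 2.05 ± 0.43 (adjusted p = 0.0132).

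The collagen IV chains did not pass in stromal nuclei. Col4a1 was 406 and 167 CPM in uninjured and 135 and 51.0 CPM at day 3 (log2 fold change -1.60 ± 0.57, adjusted p = 0.123). Col4a2 was 211 and 158 CPM against 89.9 and 49.6 CPM (-1.44 ± 0.45, adjusted p = 0.078). In both genes the day 3 libraries lay below the uninjured ones, with a wide spread within each group. Lamc1, at 662 and 726 CPM against 318 and 271 CPM, had a log2 fold change of -1.26 ± 0.37 (adjusted p = 0.056), and Col18a1, at 52.6 and 31.9 CPM against 8.43 and 13.8 CPM, one of -1.77 ± 0.63 (adjusted p = 0.120). Lama4, at 203 and 411 CPM against 233 and 693 CPM, and Hspg2, at 165 and 159 CPM against 152 and 212 CPM, overlapped between groups (0.45 ± 0.46 and 0.12 ± 0.34, adjusted p = 0.68 and 0.90).

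The later libraries stayed at low levels in stromal nuclei for the genes that had fallen. Lama2 was 437 (419 to 456) CPM at day 5 and 265 (239 to 292) CPM at day 7, Col15a1 was 21.7 and 13.3 CPM, and Nid1 was 48.4 and 24.7 CPM. Col4a1 was 45 and 27.3 CPM. Lamb1 was 142 and 111 CPM, above both uninjured libraries beyond counting error at day 5. Among the stromal groups, chondrocyte-like nuclei, in which perlecan is a known matrix component, had Hspg2 at 373 and 382 CPM at days 5 and 7. IIFC-like nuclei had it at 136 and 132 CPM and fibroblast-like nuclei at 132 and 101 CPM in the same libraries.

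The groups that make up the stromal nuclei changed with day. IIFC-like nuclei were 5 and 10 in the uninjured libraries and 55 and 92 at day 3, and the 4 SSPC markers summed to 2308 and 1366 CPM in uninjured and to 67.5 and 97.1 CPM at day 3. Nerve sheath markers went from 346 and 301 CPM to 8.43 and 58.6 CPM. Immune markers went from 15 and 21 to 64.6 and 205 CPM. In fibroblast-like nuclei alone, Lama2 (4675 and 2487 against 725 and 855 CPM, adjusted p = 0.040), Col15a1 (281 and 280.4 against 11.4 and 26.9 CPM, adjusted p = 0.0046) and Lamb1 (74.0 and 27.9 against 199.8 and 209 CPM, adjusted p = 0.045) were called in the same directions by edgeR. Nid1, at 178 and 199.6 against 126 and 119 CPM, was not (log2 fold change -0.67, adjusted p = 0.50). In fibroblast-like nuclei 3 of 10 members were called, where 203 of 6511 genes were called, 80 higher and 123 lower.

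Leaving out libraries moved the stromal calls, those of all genes as well as those of members. The calls of Col15a1, Lamb1 and Nid1 were each lost in some of these fits. Such a fit leaves 1 library in a group, so effect sizes are given here. The log2 fold change ranged from -2.71 to -2.14 for Lama2 and from -2.75 to -2.39 for Col15a1. It ranged from 1.62 to 2.26 for Lamb1, from -1.65 to -1.31 for Nid1 and from -1.47 to -0.93 for Lamc1. These ranges include the fit without uninjured library 1, within 1 Cell Ranger version. Without day 3 library 1 Col4a1 and Col4a2 were at -2.52 and -1.97, and without day 3 library 2 at -0.80 and -0.79.

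**Figure D4:**
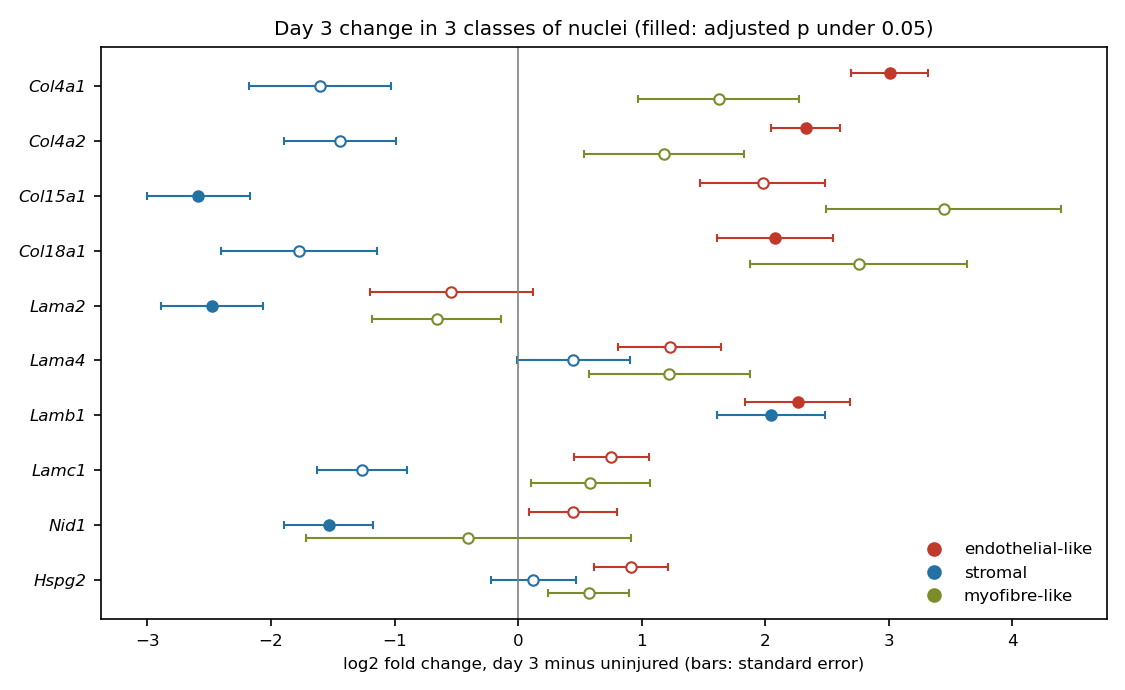
Log2 fold change of each member from uninjured to day 3 with its SE, in endothelial-like, stromal and myofibre-like nuclei, from edgeR's quasi-likelihood test on 2 libraries per group, with members past an adjusted p of 0.05 marked. Col4a1 stands at 3.01 in endothelial-like and -1.60 in stromal nuclei, and Lamb1 at 2.26 and 2.05.

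The difference between the endothelial and the stromal change was tested with the library as a block. Of the 10 members, 6 changed differently, where 4.13% of 8594 genes did, and in each of the 6 the endothelial change was the higher one (2.09% of all genes tested were called in that direction and 2.04% in the other). Col4a1 differed by 4.58 ± 0.51 on the log2 scale (adjusted p = 1.6e-08), Col15a1 by 4.42 ± 0.49 (adjusted p = 1.3e-08), Col4a2 by 3.73 ± 0.43 (adjusted p = 3.8e-08) and Col18a1 by 3.58 ± 0.60 (adjusted p = 6.2e-05). The smaller differences were those of Lamc1, 1.96 ± 0.38 (adjusted p = 0.000506), and Nid1, 1.91 ± 0.45 (adjusted p = 0.0054). Lamb1, which rose in both, differed by -0.01 ± 0.50 (adjusted p = 0.999), which does not show that the changes were equal. Lama2, Lama4 and Hspg2 did not pass. With each library left out in turn, 5 or 6 members were called, and Nid1 was lost without day 3 library 2 (adjusted p = 0.318) and without uninjured library 2 (adjusted p = 0.062). Lama2 was called without uninjured library 2 (2.96, adjusted p = 0.013).

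Myofibre-like nuclei come from muscle fibres that adhere to the periosteum and were left out of the authors' own analysis. Lama2, the laminin alpha chain gene of muscle, was 313 (268 to 364) and 1049.7 (1006 to 1095) CPM there in uninjured, 398 and 540.0 CPM at day 3, 1140.0 CPM at day 5 and 894 CPM at day 7. The uninjured libraries lay on both sides of the day 3 libraries (log2 fold change -0.66 ± 0.52, adjusted p = 0.57). Lamc1 was 87.0 and 209 CPM against 275 and 194 CPM (0.59 ± 0.48, adjusted p = 0.59), where immune-like nuclei had 109.6 CPM. Hspg2 was 92.6 and 73.4 CPM against 96.1 and 178 CPM (0.57 ± 0.33, adjusted p = 0.41), with point values that did not overlap between groups.

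Of the 9 members tested in myofibre-like nuclei, edgeR called 0, where 2.74% of 9631 genes were called (1.48% higher and 1.26% lower), and DESeq2 also called 0. Lamb1 had too few UMIs to be tested. Unadjusted p in edgeR's test was under 0.05 for 1851 of the 9631 genes, and among the 9 members for Col4a1, Col15a1 and Col18a1. Their levels were low in all 4 libraries: Col4a1 was 3.70 and 11.3 CPM in uninjured and 34.9 and 20.6 CPM at day 3, and Col15a1 was 3.70 and 0.493 against 17.1 and 15.1 CPM. Col18a1 was 1.85 and 0.986 against 5.93 and 12.9 CPM. Immune-like nuclei stood at 20.7, 11.7 and 14.4 CPM for the same 3 genes over all libraries, and immune markers in myofibre-like nuclei went from 27.8 and 24.6 CPM to 54.0 and 224 CPM, a shift whose part in these values was not tested. Without a filter on low counts Col15a1 was called (adjusted p = 0.0081).

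Set against stromal nuclei, 6 of the 10 members had a higher day 3 change in myofibre-like nuclei, where 7.21% of 11946 genes were called, 4.94% higher and 2.27% lower. The differences were 6.07 ± 0.81 for Col15a1, 4.58 ± 1.06 for Col18a1, 2.99 ± 0.56 for Col4a1, 2.45 ± 0.54 for Col4a2, 2.00 ± 0.52 for Lama2 and 1.88 ± 0.50 for Lamc1. The adjusted p of Lama2 was 0.0040, and it was lost without uninjured library 1 (0.98, adjusted p = 0.37), without day 3 library 1 (adjusted p = 0.223) and without day 3 library 2 (adjusted p = 0.109). Lamc1 was lost in the same 3 settings, Col18a1 without day 3 library 2 or uninjured library 2, and Col4a2 without day 3 library 1. For the collagens the levels in myofibre-like nuclei themselves were low, as given above.

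Pericyte/SMC-like and Schwann-like nuclei were too few at day 3 for a test, with 4 and 9 pericyte/SMC-like and 1 and 10 Schwann-like nuclei. On days 5 and 7, 71 and 32 pericyte/SMC-like nuclei had Col4a1 at 1253 (1126 to 1391) and 1301 (988 to 1681) CPM, above both uninjured libraries (785 and 749 CPM) beyond counting error. Col15a1, at 1 UMI in each uninjured library, was 424 (351 to 507) and 336 (188 to 555) CPM at days 5 and 7. Lamb1, at 0 UMIs before fracture, was 89.0 and 67.3 CPM (25 and 3 UMIs). Lama2 was 209.6 and 86.9 CPM in uninjured and 929 and 605 CPM at days 5 and 7. Col18a1, at 548 and 650.3 CPM, lay between the uninjured libraries. These are single libraries and were not tested. In Schwann-like nuclei Lamb1 went from 21 and 70 UMIs in uninjured to 0 of 26466 UMIs in the 10 nuclei of day 3 library 2, which allows up to 113 CPM. Satellite-like nuclei had Lama2 at 834 and 2064 CPM at day 3 and 5341 CPM at day 5.

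The ratio of Col4a1 to Col4a2 UMIs, from the pair of genes that share a start, was compared across groups of nuclei. In endothelial-like nuclei it was 0.937 (0.786 to 1.12, exact binomial) in the summed uninjured libraries, 1.65 (1.47 to 1.85) at day 3, 1.49 (1.37 to 1.63) at day 5 and 2.08 (1.60 to 2.72) at day 7. By library it was 0.83 and 0.967 in uninjured and 1.18 and 1.74 at day 3, so the day 3 value rested mainly on library 2. In pericyte/SMC-like nuclei the ratio was 1.07 (0.921 to 1.24) in uninjured, 1.78 (1.16 to 2.75) at day 3, 1.26 (1.08 to 1.48) at day 5 and 1.93 (1.22 to 3.11) at day 7. The day 3 value came from only 4 and 9 nuclei, with 58 of 64 Col4a1 and 33 of 36 Col4a2 UMIs from library 2. In stromal nuclei it was 1.16 (0.973 to 1.39) in uninjured, with 1.93 and 1.06 by library, and 1.17 (0.896 to 1.54) at day 3, 1.27 (1.04 to 1.55) at day 5 and 2.16 (1.22 to 3.94) at day 7. At day 7 the intervals of endothelial-like, pericyte/SMC-like and stromal nuclei overlapped. Capillary-like nuclei went from 0.851 (0.666 to 1.09) to 1.64 (1.37 to 1.96) at day 3, and venous-like nuclei from 1.08 (0.750 to 1.57) to 1.58 (1.33 to 1.88). The intervals cover counting error and no test over libraries was made.

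**Figure D5:**
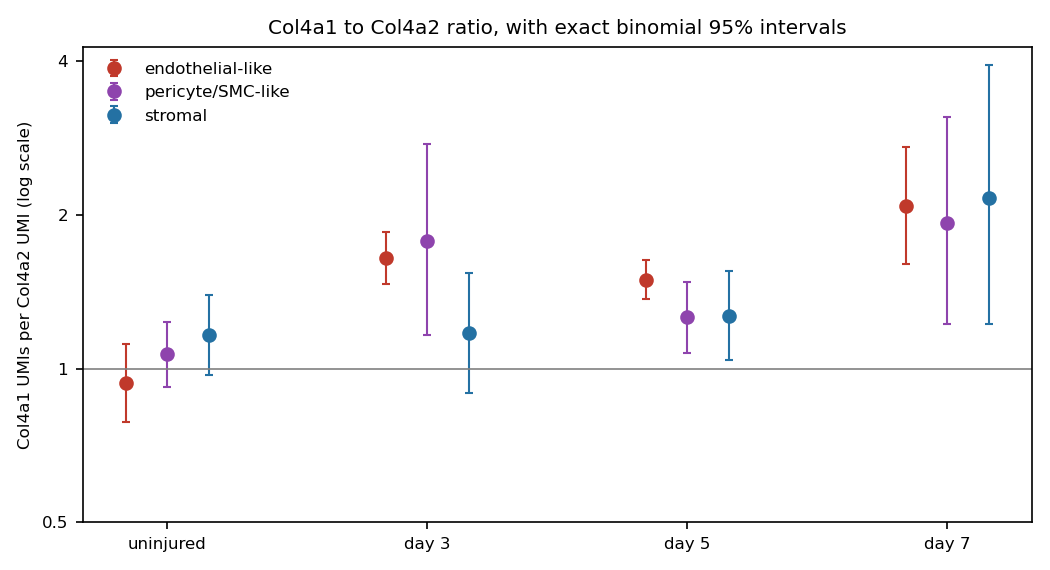
Ratio of Col4a1 to Col4a2 UMIs by day and group of nuclei, from UMIs summed over the libraries of a day, with exact binomial 95% intervals. In endothelial-like nuclei the summed uninjured libraries are at 0.937 and the days after fracture between 1.49 and 2.08.

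Likeness between levels was described over 57 sums of at least 20 nuclei (1 per group and library), with Pearson's r of log2(CPM + 10) among 4130 genes. These sums share libraries and depth, so r is given without a p. The genes most like Col4a1 were Col4a2 (r = 0.891), Sgip1 (0.768), Cav1 (0.766), the member Col18a1 (0.744) and Kitl (0.734). For Col15a1 they were Sema6d (0.726), Prex2 (0.723), the endothelial gene Emcn (0.708), Col4a1 (0.705) and Adgrl4 (0.704). For Lama2 they were Cpeb1 (0.756), Pknox2 (0.755), Rora (0.713), Abca8b (0.700) and Zfhx4 (0.697), and no other member. Lama2 had r of 0.168 with Col4a1 and -0.0564 with Col15a1.

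Other genes of the basement membrane were taken from 4 lists. In stromal nuclei, 15 of 29 other components were tested, of which 1 rose and 6 fell (3.36% of all genes tested rose and 4.93% fell), with a median log2 fold change of -1.44 against 0.01 over all genes. Fbln2, which encodes a fibulin, rose from 158 and 174 to 539.6 and 528 CPM (1.64 ± 0.36, adjusted p = 0.0153). Among those that fell, the collagen IV chain gene Col4a4 went from 67.7 and 44.4 CPM to 0 and 0.689 CPM (adjusted p = 0.0020), and Egflam, which encodes pikachurin, from 45.1 and 33.5 CPM to 0 and 0.689 CPM (adjusted p = 0.0042). Egflam was among the leading genes of nerve sheath-like nuclei, and nerve sheath markers in stromal nuclei went from 346 and 301 to 8.43 and 58.6 CPM, whose part in these falls was not tested. In endothelial-like nuclei 10 other components were tested and edgeR called 0, with a median of -0.90. In myofibre-like nuclei 18 were tested and Col7a1, the anchoring fibril collagen, was called, from 59.3 and 98.1 to 20.4 and 20.9 CPM (-2.06 ± 0.39, adjusted p = 0.0456).

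Enzymes that modify, fold or cut these proteins were called in small numbers. In endothelial-like nuclei Serpinh1, the collagen chaperone HSP47, rose from 11.9 and 35.1 to 108 and 164 CPM (2.35 ± 0.50, adjusted p = 0.0414), the 1 gene called of 8 tested for collagen biosynthesis, where 1.57% of all genes were called higher. Among 9 proteases tested there, Adamts9 rose from 500.4 and 614 to 3203 and 2103 CPM (2.18 ± 0.34, adjusted p = 0.0180) and Adamts4 from 7.15 and 0.836 to 64.9 and 97.8 CPM (4.76 ± 0.82, adjusted p = 0.0227). Both encode metalloproteases that cut proteoglycans. In stromal nuclei, where 3.36% of all genes rose, 2 of 11 biosynthesis genes rose, among them the prolyl hydroxylase gene P4ha3, from 7.52 and 28.0 to 87.1 and 154 CPM (2.31 ± 0.50, adjusted p = 0.0146). Of 11 proteases tested 2 rose. Ctss, which encodes a cathepsin of macrophages and was one of them (adjusted p = 0.0302), went from 0 and 3.11 to 16.9 and 42.7 CPM beside the shift in immune markers given above, whose part was not tested.

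Receptors for laminin and collagen IV showed 1 call in stromal and 1 in myofibre-like nuclei. Itga2, an integrin chain of collagen receptors, fell in stromal nuclei from 90.2 and 54.5 to 0 and 10.3 CPM (-3.34 ± 0.75, adjusted p = 0.0176), 1 of 10 receptors tested, where 4.93% of all genes fell. Itga7, the laminin-binding integrin chain of muscle, rose in myofibre-like nuclei from 24.1 and 32.0 to 192 and 225 CPM (2.75 ± 0.32, adjusted p = 0.0248), 1 of 12 tested, where 1.48% of all genes rose. The cathepsin genes Ctsl (24.1 and 20.7 to 79.0 and 321 CPM, adjusted p = 0.0491) and Ctsb (11.1 and 24.6 to 84.3 and 245 CPM, adjusted p = 0.0427) also rose there, 2 of 8 proteases, beside the rise in immune markers. Among 8 receptors in endothelial-like and 8 biosynthesis genes in myofibre-like nuclei edgeR called 0.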

How the data were processed

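For each of the 6 libraries the authors deposited a matrix of UMI counts, not normalized, and all values were computed from these counts. Per the labels and the methods, 10x 3′ libraries were counted with Cell Ranger (6.0.0 for uninjured library 1, day 5 and day 7, 7.1.0 for the other libraries) on mm10 with intronic and exonic reads. Strand, and reads shared between genes, follow that pipeline.

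Of 13551 barcodes 8073 were kept, those with between 200 and 5000 genes, less than 2% of UMIs from mitochondrial genes and less than 1.5% from ribosomal protein genes. These limits come from the methods. Scrublet (scanpy, expected rate 6%) marked 128 doublets, which were kept. The libraries were integrated and clustered with Seurat (20 components, resolution 1.3) on features that excluded the members, all marker genes and the list genes. Stromal nuclei were reclustered with 15 components at resolution 0.6 and endothelial-like nuclei with 10 components at resolution 0.5. A cluster was named from at least 3 detected markers, and stayed unnamed where its leading genes went against the name or its depth was low. Myofibre nuclei, which the authors removed, were kept. Groups rebuilt here can differ from the authors' groups in the nuclei they hold.

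UMIs were summed per library and group of nuclei. Day 3 was tested against uninjured with edgeR (filterByExpr, TMM, glmQLFit, glmQLFTest, Benjamini-Hochberg over all genes tested, threshold 0.05) where each library had at least 10 nuclei and 5000 UMIs of the group, which held for 3 of 5 planned groups. Changes were compared between groups with a group-by-day interaction and the library as a block. No test was made for days 5 and 7, each with a single library. The scripts were checked on simulated counts in which 200 genes had a log2 fold change of 2. Of these, 44% were called with stromal, 63% with endothelial-like and 47% with myofibre-like settings. Unchanged genes called numbered 4, 1 and 3. A member that did not pass may therefore still have changed. Intervals are exact Poisson (CPM) or exact binomial (shares, ratios) at 95%, and a count of 0 was read as allowing 3 counts. The depth of each sum sets the width of its interval.

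All 10 members are described. From the 4 lists, the text names at most 3 genes in each direction per tested group, those with the largest change among called genes whose mean in the higher group reached 20 CPM. The genes most like Col4a1, Col15a1 and Lama2 are the 5 with the highest r among genes with at least 50 CPM on average. The 3 leading genes of each endothelial subcluster come from genes in at least 25% of its nuclei. The members and the lists were chosen with earlier results of these data known.

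The alternatives were DESeq2, RLE normalization, no filter on low counts, each library left out, clusters without integration, resolution 0.8, relaxed limits on nuclei, doublets removed, and subsets of nuclei. Positions of genes are those of GENCODE release 21 (GRCm38). Software used was R 4.3.3, edgeR 4.0.16, DESeq2 1.42.0, Seurat 5.3.0, Python 3.11.15 and scanpy 1.11.5.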

Additional observations from a re-analysis of the deposited data

Results flagged for a closer look

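Differences between the day 3 changes of different groups of nuclei were past the threshold of edgeR's quasi-likelihood test for 12 values, which were singled out because a tested difference between groups was found. The change in endothelial-like nuclei exceeded that in stromal nuclei (log2, with adjusted p) by 4.58 for Col4a1 (1.6e-08), 3.73 for Col4a2 (3.8e-08), 4.42 for Col15a1 (1.3e-08), 3.58 for Col18a1 (6.2e-05), 1.96 for Lamc1 (0.000506) and 1.91 for Nid1 (0.0054). The change in myofibre-like nuclei exceeded that in stromal nuclei by 2.99 for Col4a1 (1.0e-05), 2.45 for Col4a2 (0.000342), 6.07 for Col15a1 (4.0e-11), 4.58 for Col18a1 (0.000712), 2.00 for Lama2 (0.0040) and 1.88 for Lamc1 (0.0041). The endothelial-like and the myofibre-like values were set against the same stromal sums, so the 2 families are not independent of each other. Within myofibre-like nuclei edgeR called 0 of 9 members tested. Collagen levels were low there, with Col15a1 at 3.70 and 0.493 CPM in the uninjured libraries. The myofibre-like differences of Lama2, Lamc1, Col18a1 and Col4a2 and the endothelial-like difference of Nid1 were not kept with every library left out.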

How the results depend on the processing

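No paired analysis was possible because the labels carry no replicate numbers that link an uninjured to a day 3 library. Each count below is of calls by day 3 against uninjured, and the cause of each shift was not tested unless fewer nuclei or libraries entered. In stromal nuclei 764 genes were called, 476 by DESeq2, 203 with fibroblast-like nuclei only and 162 to 964 with a library left out, and the 4 members called became 1 to 6 with a library left out and 6 without a filter on low counts, while DESeq2 called 3 and lost Nid1 (adjusted p = 0.063). In endothelial-like nuclei 234 genes were called, 688 without a filter, 65 in capillary-like and 73 in venous-like nuclei only, and 4 to 429 with a library left out. The 4 members called there became 5 by DESeq2, which added Col15a1 (adjusted p = 0.014), 6 without a filter, 1 in capillary-like and 2 in venous-like nuclei, and 0 to 6 with a library left out. In myofibre-like nuclei 264 genes were called, 608 by DESeq2, 1324 without a filter, 56 without integration and 0 to 605 with a library left out (0 by edgeR without uninjured library 1, where 1420 genes had an unadjusted p under 0.05), and 0 members, 1 without a filter. Members whose change differed from stromal nuclei ranged from 5 to 6 for endothelial-like and from 3 to 5 for myofibre-like nuclei with a library left out. Directions turned only for values that had not passed the test. In stromal nuclei Hspg2 was at -0.027 without integration and -0.11 in fibroblast-like nuclei only, and Lama4 ranged from -0.25 to 1.16 with a library left out. Nid1 was at -0.39 in venous-like nuclei only. In myofibre-like nuclei Lama2 ranged from -1.26 to 0.42 and Nid1 from -1.03 to 0.31 with a library left out. The endothelial against stromal difference of Lamb1 ranged from -0.37 to 1.35 and the myofibre against stromal difference of Nid1 from -3.87 to 6.47. Col18a1 in endothelial-like nuclei, at an adjusted p of 0.0478, lay between 0.051 and 0.37 in 9 alternatives. No member was highest in endothelial-like nuclei of both uninjured libraries under the 4 alternatives run on both (without integration, resolution 0.8, doublets removed, relaxed limits on nuclei). The subsets of endothelial-like nuclei, fibroblast-like nuclei only, the added low-depth nuclei and the removal of libraries from the differences were chosen after seeing the data. The alternatives planned for pericyte/SMC-like and Schwann-like nuclei were not run, since the test itself needed at least 10 nuclei per library. Leaving out 1 library leaves 1 sample in its group, which is assumed to vary like the other group. Depth also limits the endothelial-like results, with 39 nuclei and 92427 UMIs in day 3 library 1.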
